A study of Mus musculus with 4 samples.

Results

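Among the costimulatory genes described here, Slamf6, which encodes the SLAM family receptor Ly108, showed the largest difference between tumour CD8 T cells sorted with and without surface JAML. JAML-negative cells held 185 ± 25.6 CPM (counts per 1000000 of a library's total after edgeR's TMM scaling) and JAML-positive cells 109 ± 9.49 (SD, n = 2). The log2 fold change of -0.76 (SE 0.27) did not pass the test across all genes (edgeR adjusted p = 0.609). Cd28, Cd2 and Slamf1 lay within 0.06 of no change on that scale, and Sh2d1a, which encodes the adaptor SAP, differed mainly through 1 library. The genes are Cd28, Icos, Cd226, Cd2, Cd48, Cd84, Slamf1, Slamf6, Slamf7 and Sh2d1a. They were chosen by symbol as immunoglobulin superfamily costimulatory receptors with the SLAM adaptor. All 10 are among the 14934 genes of the count table, and all 10 were among the 11563 genes tested.

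The cells were CD8 T cells of wild-type (WT) genotype, taken from mouse hepatocellular carcinoma and separated by flow cytometry according to surface JAML, an adhesion receptor of the immunoglobulin superfamily. The design sets the sorted fractions against each other, with 2 JAML-positive libraries (JAML+CD8T in the descriptions) and 2 JAML-negative libraries (JAML-CD8T, titled CON). Each fraction has a library A and a library B, called the negative and the positive libraries below. No drug or other agent is named, and the sources used here do not give the tumour model, strain, age or number of animals per library. Since nothing says that A and B came from separate animals, p-values reflect only how much these libraries vary, and that variation could be technical.

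Library totals ran from 27530187 to 30569728 counts. Jaml itself, the sort marker, was at 124 ± 9.89 CPM in negative and at 142 ± 6.53 CPM in positive libraries (SD, n = 2, log2 fold change 0.20, SE 0.26, edgeR adjusted p = 0.881), so its transcript gave little check of the labels. The 8 genes of the CD8 T cell list, with Cd8a and Cd8b1 the most abundant, were present in all 4 libraries at a summed 3839 to 4329 CPM. The list also holds Cd3e, Cd3d, Cd3g, Cd247, Cd5 and Lck, so the sum is not of CD8 genes alone. On the log2 scale Cd8a was at -0.03 (SE 0.19), Cd8b1 at 0.27 (SE 0.21), Cd3e at 0.05 (SE 0.21) and Cd4 at 0.33 (SE 0.27). JAML-positive replicate A stood apart, with 12.5% of its counts on ribosomal protein genes against 7.71% to 8.62% in the others. The 10 costimulatory genes took 0.203% to 0.221% of each library.

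A T cell needs a second signal beside its antigen receptor to divide and survive. CD28, bound by CD80 and CD86 on the presenting cell, and its relative ICOS, bound by ICOS ligand, supply it through phosphoinositide 3-kinase (PI3K). CD226 competes with TIGIT and CD96 for shared ligands, CD2 binds CD48 in mice, and most SLAM receptors bind themselves on a neighbouring cell and signal through SAP, a small protein that consists almost wholly of an SH2 domain.

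Short motifs in the cytoplasmic tails mark these signalling groups, and their coding sequences are shown for that reason. In the CD28 and ICOS tails a tyrosine and a methionine, with any residue and then Asn (CD28) or Phe (ICOS) between them, dock PI3K. The 30 bases around each site are printed with the codons for that Tyr and Met in capitals (GENCODE M21, GRCm38, plus strand), for Cd28 at chr1:60769684-60769713 and for Icos at chr1:60995551-60995580.
Cd28: caaagtgacTACatgaacATGactccccgg
Icos: aatagtgaaTACatgttcATGgcggcagtc
A match to either form of this motif was found in 2.57% of 12565 coding genes of the table, searched over the whole protein. Among the 10 genes it was found in Cd28 and Icos, once each. Since its forms are those of the CD28 and ICOS sites, these matches were fixed in advance.

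SAP binds another tyrosine motif, Thr, any residue, Tyr, any 2 residues, then Val or Ile. The tails of Slamf1, Slamf6 and Cd84 each held 2 matches and the tail of Slamf7 held 1. The 36 bases around each are printed, in 5′ to 3′ direction of the transcript, with the codons for Thr, Tyr and Val in capitals, since they show what these receptors share. The sites are chr1:171792330-171792365 and chr1:171799579-171799614 for Slamf1, chr1:171939428-171939463 and chr1:171941655-171941690 for Slamf6, chr1:171884596-171884631 and chr1:171885592-171885627 for Cd84 (all on the plus strand), and chr1:171636318-171636353 on the minus strand for Slamf7.
Slamf1, first: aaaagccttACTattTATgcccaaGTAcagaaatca
Slamf1, second: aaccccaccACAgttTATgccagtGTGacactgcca
Slamf6, first: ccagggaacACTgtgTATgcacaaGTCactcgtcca
Slamf6, second: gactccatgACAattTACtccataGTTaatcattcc
Cd84, first: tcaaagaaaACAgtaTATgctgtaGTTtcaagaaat
Cd84, second: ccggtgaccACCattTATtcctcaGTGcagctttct
Slamf7: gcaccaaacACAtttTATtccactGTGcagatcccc
At least 1 match was found in 7.92% of the 12565 coding genes, and 2 or more in 0.653%, again over whole proteins. Over whole proteins the counts of these receptors were the same as in their tails. The motif was chosen as the SAP site of SLAM receptors, so their matches were fixed in advance. Cd28, Icos, Cd226 and Cd2 held 0 matches. Cd48, whose product is held in the membrane by a lipid anchor, held 1 match outside the tail. A match is a description of the letters. It is no evidence that SAP binds that receptor or that the site was used in these cells.

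The levels of the 10 genes spanned a wide range. Per kilobase of merged exon, Cd2 was the most abundant at 400 ± 58.8 CPM per kilobase (SD over all 4 libraries), followed by Cd48 at 221 ± 42.7 and Cd28 at 120 ± 15.6. The libraries of these 3 genes did not overlap with those of the next gene in the order. Cd226 (54.6 ± 6.66) and Icos (51.0 ± 4.51) overlapped each other, and Sh2d1a (34.5 ± 14.6) overlapped Icos and Cd84. The other SLAM family receptors came last, with Cd84 at 21.8 ± 2.45, Slamf6 at 20.8 ± 6.59, Slamf7 at 17.2 ± 4.36 and Slamf1 at 14.8 ± 5.49 CPM per kilobase. Each of them overlapped its neighbour in that order. None of the 10 shares exonic bases with another gene of the table.

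**Figure D1:**
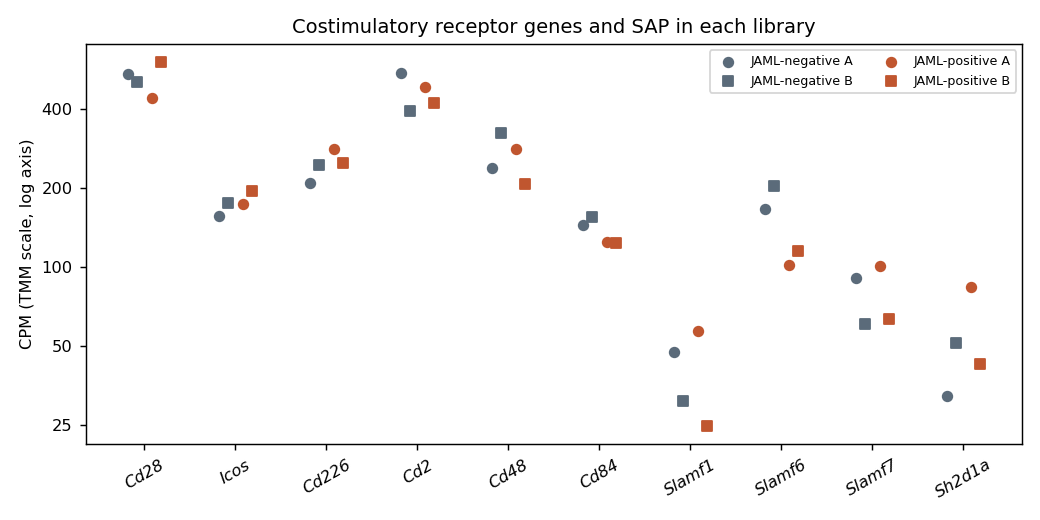
Level of each gene in CPM on the TMM scale (log axis) in the 4 libraries, with colour for the group and shape for the replicate. Slamf6 and Cd84 lie lower in both JAML-positive libraries. Slamf1, Slamf7 and Cd2 lie higher in both A libraries than in both B libraries, and Icos narrowly the other way.

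None of the 10 genes passed edgeR's quasi-likelihood test at an adjusted p of 0.05, nor did any gene of the table (0% of 11563, smallest adjusted p = 0.227). The values of 5 genes were higher in JAML-positive cells and those of 5 lower, and the median log2 fold change of the 10 was 0.01, as it was over all genes tested (0.01). An unadjusted p under 0.05 was reached by 0 of the 10 in the higher and 1, Slamf6, in the lower direction, against 4.32% higher and 3.34% lower of all genes. DESeq2 called 0 higher and 1 lower, Slamf6, against 4.64% and 3.02% of all genes, and limma-voom called 0. The groups did not overlap for Cd226, which was higher, and for Cd84 and Slamf6, which were lower, against 20.3% of all genes higher and 18.2% lower. In bulk libraries fewer cells that express a gene and less RNA per cell cannot be told apart.

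**Figure D2:**
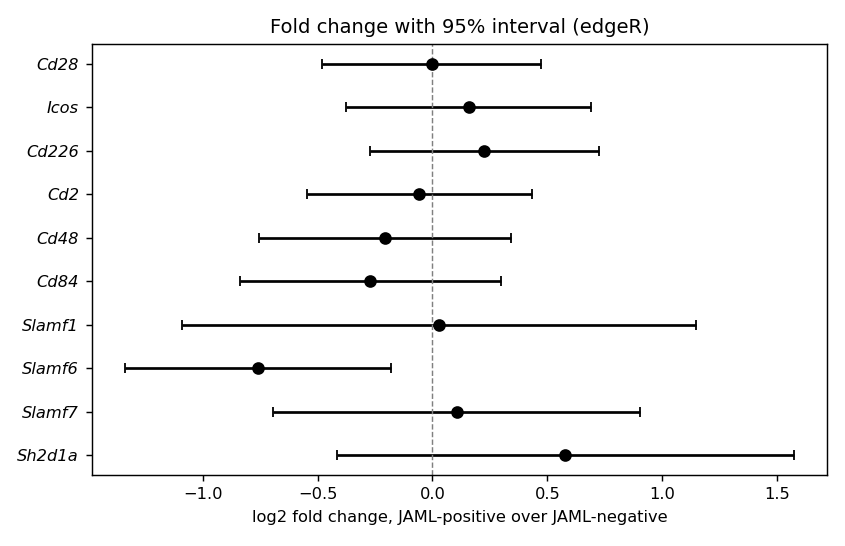
Log2 fold change of JAML-positive over JAML-negative cells for each gene (points) with its 95% interval from edgeR (bars), 2 libraries per group. The interval of Slamf6 runs from -1.34 to -0.18 before any adjustment, and those of the other 9 genes cross 0.

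Cd28 (Entrez 12487, chromosome 1, 60746388 to 60773359, plus strand), the receptor for CD80 and CD86, was at 543 and 504 CPM in the negative libraries (A, B) and at 441 and 602 CPM in the positive ones. The JAML-positive libraries were the lowest and the highest of the 4, so the groups overlapped fully. Its means differed by -0.0038 on the log2 scale (SE 0.22, edgeR adjusted p = 0.997), with a 95% interval from 0.717-fold to 1.39-fold. Icos (Entrez 54167, chromosome 1, 60960773 to 61000322, plus strand), which is induced on activation, was at 156 and 175 CPM in the negative libraries (A, B) and at 174 and 194 CPM in the positive ones. JAML-negative B and JAML-positive A were nearly level, and the group difference (log2 fold change 0.16, SE 0.25, edgeR adjusted p = 0.901) was about the size of the replicate differences, 0.16 in negative and 0.15 in positive libraries. It was 0.07 without negative A or positive B and 0.24 and 0.23 without negative B or positive A.

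Cd226 (Entrez 225825, chromosome 18, 89176954 to 89272232, plus strand), which encodes the activating receptor DNAM-1, was at 209 and 244 CPM in the negative libraries (A, B) and at 282 and 248 CPM in the positive ones. Both JAML-positive libraries were above both JAML-negative ones, but JAML-negative B and JAML-positive B were close. On the log2 scale the difference was 0.23 (SE 0.23, edgeR adjusted p = 0.832), and its 95% interval reached up to 1.65-fold. It was 0.11 without negative A, 0.13 without positive A and 0.35 without negative B.

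Cd2 (Entrez 12481, chromosome 3, 101275908 to 101287939, minus strand), an adhesion receptor that also costimulates, was at 546 and 394 CPM in the negative libraries (A, B) and at 483 and 421 CPM in the positive ones. The JAML-positive libraries both lay between the JAML-negative ones (log2 fold change -0.06, SE 0.23, edgeR adjusted p = 0.969). Its ligand gene Cd48 (Entrez 12506, chromosome 1, 171681245 to 171705258, plus strand), which T cells themselves also express, was at 239 and 323 CPM in the negative libraries (A, B) and at 282 and 207 CPM in the positive ones. Replicate B was the higher library in one group and the lower in the other, and the groups overlapped (log2 fold change -0.21, SE 0.25, edgeR adjusted p = 0.867).

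Slamf6 (Entrez 30925, chromosome 1, 171917458 to 171948958, plus strand), known in CD8 T cells as a surface marker of stem-like exhausted cells, was at 166 and 203 CPM in the negative libraries (A, B) and at 102 and 115 CPM in the positive ones. Its read counts were 4702 and 5579 against 2696 and 3609. Both JAML-positive libraries lay well below both JAML-negative ones, and the group difference of -0.76 was larger than the log2 differences between replicates, 0.28 in JAML-negative and 0.18 in JAML-positive cells. DESeq2 gave it an adjusted p of 0.00368, while the adjusted p lay between 0.570 and 0.881 in the other alternatives. With any 1 library left out the log2 fold change stayed between -0.90 and -0.61.

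Cd84 (Entrez 12523, chromosome 1, 171839697 to 171890718, plus strand), a self-binding SLAM receptor found on many blood cells, was at 144 and 155 CPM in the negative libraries (A, B) and at 124 and 124 CPM in the positive ones. The libraries within each group were close and the groups did not overlap, yet the difference was small (log2 fold change -0.27, SE 0.26, edgeR adjusted p = 0.820). Without any 1 library it lay between -0.32 and -0.22.

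Slamf1 (Entrez 27218, chromosome 1, 171767131 to 171801184, plus strand), the founding SLAM receptor CD150, was at 47.4 and 30.8 CPM in the negative libraries (A, B) and at 56.9 and 24.7 CPM in the positive ones. Slamf7 (Entrez 75345, chromosome 1, 171632403 to 171653037, minus strand), which encodes CRACC and is expressed on cytotoxic lymphocytes and plasma cells, was at 90.4 and 60.5 against 101 and 63.2 CPM in the same order. For both genes replicate A was the higher library in each group. The log2 differences of B from A were -0.62 and -1.20 for Slamf1 and -0.58 and -0.67 for Slamf7 in JAML-negative and JAML-positive cells. The group differences were much smaller, 0.03 (SE 0.51, edgeR adjusted p = 0.993) for Slamf1 and 0.10 (SE 0.37, edgeR adjusted p = 0.964) for Slamf7. The 95% interval of Slamf1 ran from 0.470-fold to 2.21-fold, the widest among Slamf1, Slamf6, Slamf7 and Cd84.

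Sh2d1a (Entrez 20400, chromosome X, 42502565 to 42522097, plus strand), which encodes SAP, was at 32.2 and 51.4 CPM in the negative libraries (A, B) and at 83.7 and 42.7 CPM in the positive ones. JAML-positive A was the highest library, and JAML-positive B lay between the JAML-negative ones. On the log2 scale the difference was 0.58 (SE 0.46, edgeR adjusted p = 0.773). It went to 0.04 without positive A, 0.28 without negative A, 0.96 without negative B and 1.001 without positive B. Positive A also had the 12.5% share of ribosomal protein counts, and the part of this in the Sh2d1a value was not tested.

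**Figure D3:**
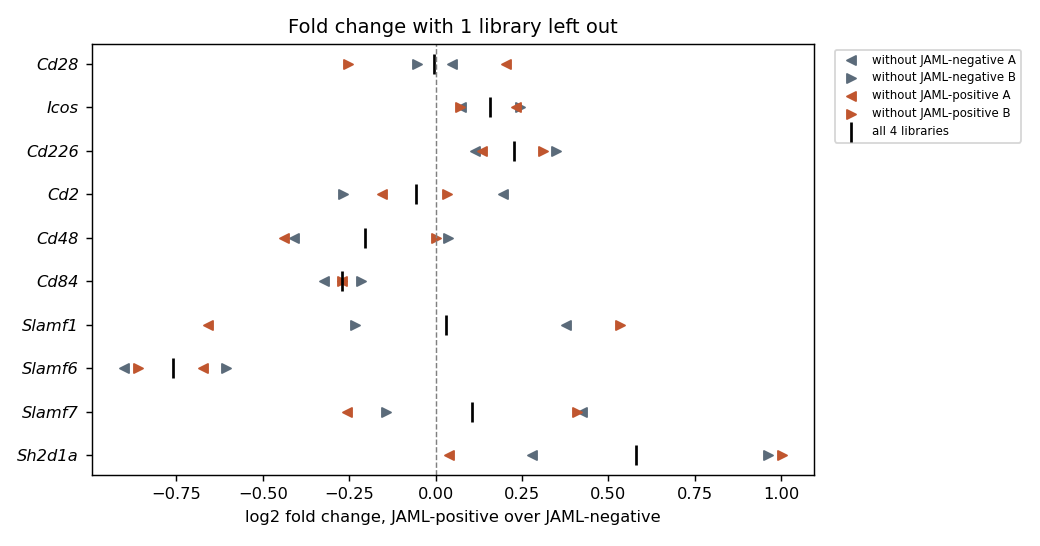
Log2 fold change of each gene with all 4 libraries (black bars) and with 1 library left out (triangles, coloured by the group that loses a library). The triangles of Icos, Cd226, Cd84, Slamf6 and Sh2d1a stay on 1 side of 0, and those of Slamf1 spread from -0.66 to 0.53.

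Some of these values moved with a correction for transcript length. With the trend of each library over transcript length removed, the log2 fold change of Cd48 went from -0.21 to -0.49, that of Cd2 from -0.06 to -0.34 and that of Sh2d1a from 0.58 to 0.29. The longest transcripts of these 3 genes, at 1186, 1153 and 1223 bases, are the shortest among the 10. Slamf6, with the longest at 5729 bases, went from -0.76 to -0.61.

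Ratios of read counts within a library do not depend on how libraries are scaled. The count ratio of Cd28 to Ctla4, the inhibitory receptor that shares the ligands of CD28, was 1.88 and 2.32 in the negative libraries (A, B) and 1.24 and 1.55 in the positive ones. Both positive libraries had the lower ratios (0.662-fold, log2 -0.76 to -0.43 with 1 library left out). Ctla4 was at 253 ± 50.9 and 373 ± 23.0 CPM (SD, n = 2, log2 fold change 0.56, SE 0.23, edgeR adjusted p = 0.609), with both positive libraries higher. The ratio of Slamf6 to Slamf7 was 1.84 and 3.35 in the negative libraries (A, B) and 1.01 and 1.83 in the positive ones. The groups did not overlap, but JAML-negative A and JAML-positive B were nearly equal (0.548-fold, log2 -0.87, and -0.44 without either negative B or positive A).

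The ratio of Cd226 to Tigit, its inhibitory competitor, was 4.21 and 1.96 in the negative libraries (A, B) and 4.09 and 1.72 in the positive ones. It thus followed the replicate letter and not the group. Tigit itself did so, at 49.5 and 125 CPM in the negative libraries (A, B) and 68.9 and 144 CPM in the positive ones. The A and B libraries overlapped for Cd226. Icos to Cd28 was 0.287 and 0.347 against 0.395 and 0.322, and Cd2 to Cd48 was 2.29 and 1.22 against 1.71 and 2.04, both with overlapping groups. Over the 5 ratios the two-sided exact permutation p was 0.333 to 1 (0.833 to 1 adjusted over the 5), and 0.333 is the smallest that 2 against 2 libraries can give.

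**Figure D4:**
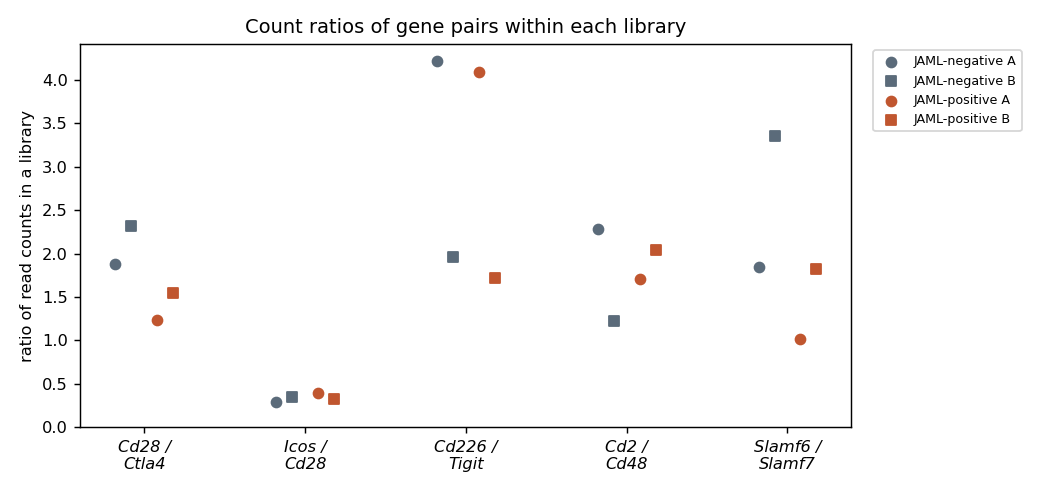
Ratio of read counts of 5 gene pairs (linear axis) within each of the 4 libraries. The ratio of Cd28 to Ctla4 is lower in both JAML-positive libraries, and that of Cd226 to Tigit is about 4 in both A libraries and under 2 in both B libraries.

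The SLAM receptor genes lie together. Cd244a, Ly9, Slamf7, Cd48, Slamf1, Cd84 and Slamf6 lie in this order within 390 kb of chromosome 1 (171558718 to 171948958), and 10 genes of the table lie in that span. Their log2 fold changes in this order were -0.56, -0.14, 0.10, -0.21, 0.03, -0.27 and -0.76. They ran neither in one direction nor at one size along the cluster, and the 95% interval of each gene but Slamf6 crossed 0. Cd28 and Icos lie on the same chromosome with Ctla4 between them, within 254 kb, and the 3 had log2 fold changes of -0.0038 (Cd28), 0.16 (Icos) and 0.56 (Ctla4).

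**Figure D5:**
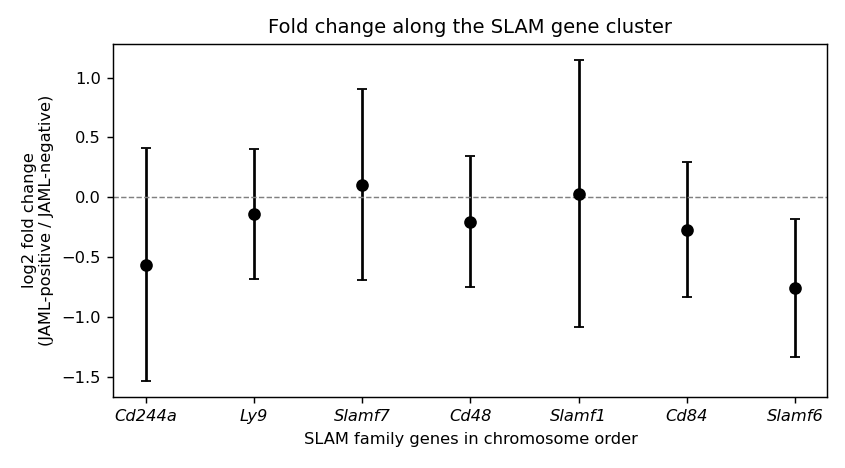
Log2 fold change of JAML-positive over JAML-negative cells (points) with its 95% interval from edgeR (bars) for the 7 SLAM family genes in the order of the chromosome 1 cluster. Values range from -0.76 for Slamf6 to 0.10 for Slamf7.

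Of the other SLAM family receptors, 2 of 4 were tested and both had lower values, with 0 passing. Cd244a, which encodes 2B4, the receptor for CD48, was at 47.0 ± 2.20 and 32.0 ± 4.74 CPM (SD, n = 2, log2 fold change -0.56, SE 0.45, edgeR adjusted p = 0.775). Ly9 was at -0.14 (SE 0.25) on the log2 scale. Slamf8 and Slamf9, receptors of myeloid cells, had 0 to 96 counts per library and were not tested. Among 6 tested kinases and phosphatases that act with SLAM receptors, 5 had higher values, 1 lower and 0 passed, with a median log2 fold change of 0.23. Inpp5d, which encodes the lipid phosphatase SHIP-1, was at 0.30 (SE 0.25), Ptpn11, which encodes SHP-2, at 0.37 (SE 0.30) and Lyn, a kinase of B and myeloid cells, at 0.40 (SE 0.67). Fyn, the kinase that SAP recruits, was at -0.04 (SE 0.21).

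The ligand genes of CD28 and ICOS were scarce in these T cell libraries. Cd86 was at 21.1 ± 9.73 and 18.6 ± 9.85 CPM, and Icosl at 9.40 ± 6.99 and 15.4 ± 0.139 CPM in negative and positive libraries (SD, n = 2). Cd80 had 0 and 123 counts in the negative libraries (A, B) and 103 and 2 in the positive ones, so it followed neither group. Of the 3 ligand genes 0 passed.

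Of 6 genes of the inhibitory side of this family, 3 had higher and 3 lower values and 0 passed. Over the 43 tested genes of the 7 pathway lists described here, 1 higher (Ctla4) and 2 lower genes (Vsir and Bcl10) had an unadjusted p under 0.05, and DESeq2 called 1 higher (Pdcd1lg2) and 1 lower (Vsir). These shares are near those of all genes, 4.32% and 3.34% for the former and 4.64% and 3.02% for the latter. Beside Ctla4, Vsir, which encodes the inhibitory receptor VISTA, was at 289 ± 25.3 and 198 ± 11.9 CPM (SD, n = 2, log2 fold change -0.55, SE 0.23, edgeR adjusted p = 0.609). Pdcd1lg2, which encodes the PD-1 ligand PD-L2, had 0 counts in both JAML-negative libraries and 182 and 61 in the positive libraries (A, B). The mean of the positive libraries, 4.42 CPM, was 41.1 times a floor of 3 counts per library. That floor covers counting error only, and Cd80 had 0 and 123 counts in the negative libraries, so this ratio is no lower bound. The edgeR interval of Pdcd1lg2 began at 0.548-fold (edgeR adjusted p = 0.609). Of the 5 tested genes listed with the ligands and competitors of CD226, 3 had higher and 2 lower values and 0 passed. One of the higher ones, Cd200r1 (0.24), encodes the receptor for CD200 and is neither a ligand nor a competitor, which leaves 2 higher and 2 lower. Cd96 was at 240 ± 3.87 and 195 ± 31.9 CPM (log2 fold change -0.29, SE 0.24) and Pvrig, an inhibitory receptor for Nectin-2, at 16.9 ± 1.92 and 5.18 ± 4.39 CPM (-1.78, SE 0.95), each with both JAML-positive libraries lower. Tigit was at 0.31 (SE 0.44).

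Behind CD2, 1 of 4 cytoplasmic partners had a higher value and 3 lower, with Lck, the kinase bound to the CD8 tail, at -0.22 (SE 0.21), Cd2bp2 at 0.27 (SE 0.25) and Cd2ap, an adaptor to the cytoskeleton, at -0.28 (SE 0.35). Behind CD28 and ICOS, 4 of 17 listed genes had higher and 13 lower values, with a median of -0.27 beside 0.01 over all genes. The list also holds Il2 (-0.82, SE 1.47) and Bcl2l1 (-0.30, SE 0.44), which are outputs of these signals and not relays. Both count among the lower values, and Bcl2l1 also among the lower genes whose groups did not overlap. The groups did not overlap for 2 higher and 7 lower of the 17, which reads against the 20.3% and 18.2% given above. Bcl10, which links antigen receptor and CD28 signals to NF-kappaB, was at 137 ± 23.6 and 84.6 ± 13.4 CPM (SD, n = 2, log2 fold change -0.69, SE 0.30, edgeR adjusted p = 0.609). Pik3cd, the catalytic PI3K subunit of lymphocytes, was at 612 ± 1.95 and 474 ± 74.7 CPM (-0.36, SE 0.21), and Nfkb1 at 200 ± 0.588 and 274 ± 52.7 CPM (0.46, SE 0.24). In both lists 0 genes passed.

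Summed levels of several marker lists of other cell types were higher in both positive libraries, in part through single genes, and some of those cells share the receptors described here. The 7 plasmacytoid dendritic cell markers summed to 224 and 226 CPM in negative (A, B) and 352 and 458 CPM in positive libraries. Means were higher for 7 of 7, with the highest levels for Runx2 and Irf8. The groups overlapped for Runx2 (124 and 113 against 81.8 and 187 CPM) and Bst2 (23.4 and 24.1 against 32.3 and 21.8 CPM). Klk1 was at 17.1 CPM in JAML-positive B and at 0.44 CPM or less in each other library. Siglech, Ccr9, Tcf4 and Irf8 were higher in both positive libraries. The 8 dendritic cell and MHC class II genes summed to 64.3 and 55.8 against 362 and 209 CPM (8 of 8 higher, Cd74 and H2-Eb1 the most abundant). Zbtb46 and Clec9a had 113 and 133 counts in JAML-positive B and 0 or 1 in each other library, and Xcr1 overlapped between the groups. The 7 B and plasma cell genes summed to 10.5 and 18.1 against 130.3 and 84.9 CPM. Means were higher for 6 of 7, with Jchain and Cd79b the most abundant. Mzb1 was at 0 in both JAML-negative libraries. Sdc1 had 167 counts in JAML-positive A and 0 in each other library. Cd79a and Pax5 were at 0 to 4 counts everywhere, and Cd79a is among the 6 with a higher mean. The 9 macrophage genes summed to 82.7 and 89.0 against 205 and 165 CPM (6 of 9 higher, with Mpeg1 and Lyz2 the most abundant). Without Mpeg1 the other 8 macrophage genes summed to 75.2 and 75.1 against 85.7 and 75.6 CPM, so that difference was nearly all Mpeg1. Without Jchain the other 6 B and plasma cell genes summed to 5.91 and 17.7 against 31.8 and 33.9 CPM, and Cd79b, the most abundant of them, overlapped between the groups.

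Markers of CD4 and regulatory T cells, 4 of 4 with higher means, summed to 135 and 155 against 184 and 245 CPM. Cd4 and Zbtb7b were the most abundant, and the groups overlapped for Zbtb7b and Foxp3. Cd4 and Cd40lg were higher in both positive libraries. Cd40lg was at 0.035 and 2.54 CPM in negative (A, B) and 13.5 and 33.5 CPM in positive libraries (log2 fold change 4.24, SE 1.25, edgeR adjusted p = 0.609). The 4 natural killer cell genes, led by Klrb1c and Ncr1, summed to 66.4 to 94.6 CPM and the groups overlapped, with Klra4 at 0 in both negative libraries. Of the 6 hepatocyte and tumour genes, led by Afp and Alb, 2 had higher means. The sums were 53.2 and 27.5 against 18.1 and 26.0 CPM. Krt18 had 126 counts in JAML-positive B and 0 in each other library. Plasmacytoid dendritic cells, B cells and macrophages also carry Cd48, Cd84, Slamf7 or the CD28 ligands, and the part of their RNA in the values above was not tested. Slamf6 and Cd84 had lower values in the JAML-positive libraries, where the sums of the plasmacytoid dendritic cell and the MHC class II lists were higher. Both follow the sorted groups, so with 2 libraries per group a link between them cannot be told apart from the sort.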

How the data were processed

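The authors deposited read counts per gene for 4 libraries, whole numbers with no further normalization recorded. The submitters' processing notes name the builds GRCm38 and mm10. For the aligner, counting program, strand setting and annotation, nothing is given in the sources used here. Library kits were a Qiagen column and a SMARTER mRNA kit, per the labels' protocols.

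Counts were tested with edgeR 4.0.16 in R 4.3.3 (filterByExpr, minimum count 10; TMM; glmQLFit, robust, with the newer quasi-likelihood version; Benjamini-Hochberg over 11563 genes, threshold 0.05). SE is the absolute log2 fold change over the square root of F, and the 95% intervals use a t quantile. DESeq2 1.42.0 and limma 3.58.1 were alternatives. The edgeR script was tested on simulated data. CPM are on the TMM scale; depth limits a gene without counts to 0.0981 to 0.109 CPM (3 counts, counting error only). Positions are RefSeq on GRCm38.p6 by Entrez identifier (14678 genes); exon lengths and coding sequences are GENCODE M21 basic, using the longest coding transcript. A receptor's tail is what follows its most hydrophobic 19-residue window after residue 50. Named genes are the 10 genes, Jaml, Cd8a, Cd8b1, Cd3e, Cd4 and genes of the ratio pairs. Up to 3 genes per list with the smallest p are also named. Fyn, Cd200r1, Il2, Bcl2l1 and genes with few or 0 counts were chosen after values were seen. For marker lists, the 2 most abundant genes are named. Marker sums without Mpeg1 or Jchain, and marker genes beyond the 2 most abundant, were also added after the values were seen. Members and lists were chosen with earlier results of these data known. Sh2d1b1, Sh2d1b2, Nectin2, Cox6a2 and Krt8 of the lists were not matched and are not analysed here. Another listed B cell marker is not reported here, and the sum of that list leaves it out. Of the values in the deposited table, 0 columns belong to other samples.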

Additional observations from a re-analysis of the deposited data

How the results depend on the processing

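Of 130 refits (10 genes under 13 alternatives), 116 kept the sign and 14 did not; Icos, Cd226, Cd84, Slamf6 and Sh2d1a kept it in all 13. Slamf1 changed sign with library totals only (-0.0046), limma-voom (-0.073) and the length trend removed (-0.027), and Cd28 with the length trend removed (0.092). With 1 library left out, log2 fold changes ran from -0.25 to 0.20 for Cd28, -0.27 to 0.19 for Cd2, -0.44 to 0.036 for Cd48, -0.66 to 0.53 for Slamf1 and -0.26 to 0.42 for Slamf7. The causes were not tested.

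Genes called went from 0 to 885 with DESeq2 (1 of the 10 genes, Slamf6), to 2 with no filter on low counts, to 2 with a mean of at least 5 CPM, and to between 0 and 11 with 1 library left out, the 11 without JAML-positive replicate B. With the replicate block 0 genes were called and Slamf6 was at -0.76 (adjusted p = 0.854). The labels do not say that the replicate letters pair the libraries. Across genes, deviations of the A libraries from their group means had a Pearson r of 0.0176. With 2 libraries per group this cannot settle the pairing. Slamf1, Slamf7, Cd2 and the ratio of Cd226 to Tigit did follow the letter, with both A libraries higher. Icos followed it with both B libraries higher, narrowly (174.7 CPM in JAML-negative B, 174.3 CPM in JAML-positive A). The share of all genes that follow the letter was not computed, so these cases do not bear on the pairing. The earlier quasi-likelihood version of edgeR, chosen after seeing the data, called 0 genes. With 2 libraries per group the median SE was 0.56, and 0.26 for genes above 100 CPM.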
